A study of Mus musculus with 18 samples.

Results

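The transcripts described here are those of 6 claudins (Cldn1, Cldn3, Cldn4, Cldn6, Cldn7 and Cldn9) and of the tight junction proteins occludin (Ocln), ZO-1 (Tjp1) and JAM-A (F11r). They were picked by gene symbol and make up 9 of the 24421 genes counted. Of these, 8 passed the filter on low counts, as did 13507 genes in all, and Cldn1 did not. The cells were 4T1, a mammary carcinoma line of BALB/cfC3H mice labelled wild type, and 4T1R1 and 4T1R2, populations derived from 4T1 by separate selection with 17-DMAG, an inhibitor of the chaperone HSP90. The 6 groups were untreated 4T1, untreated 4T1R1, untreated 4T1R2, and each of these after 1.5 µM 17-DMAG, with 3 libraries in each group. The sample records give 48 h of 17-DMAG, whereas the series description gives 2 h, so the length of treatment is uncertain. For the selection, the records name 3 rounds of 1.5 µM for 48 h, and the series description names cycles of 1 µg/ml for 24 h. The sources describe the resistant cells as populations and do not call them clones.

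Tight junctions seal the space between neighbouring epithelial cells near their apical edge. Claudins and occludin span the membrane, claudins of adjacent cells pair to form the strands that set which ions pass, and JAM-A is an immunoglobulin-like adhesion protein of the same contact. ZO-1 and its relatives lie beneath the membrane and tie these proteins to actin, and mammary luminal cells are known for Cldn3, Cldn4 and Cldn7.

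The first 2 libraries of treated 4T1 differed from each other far less than any other pair within a group. Their mean was therefore taken as 1 sample, which left 17 libraries and n = 2 in that group. Totals ran from 23354461 to 55094630 reads per library. The library names of 4T1R1 form a number run apart from those of 4T1 and 4T1R2, so the effect of the population 4T1R1 and that of these runs cannot be told apart. The epithelial markers Epcam, Cdh1, Krt7, Krt8, Krt18 and Krt19 were each over 100 normalized counts in every group. Their sum was 76480 to 77560 in untreated 4T1, 51350 to 53920 in untreated 4T1R1 and 59350 to 60580 in untreated 4T1R2. Leukocyte markers summed to at most 227 normalized counts in any library, endothelial markers to at most 21.4, and of the fibroblast markers, whose sums ran from 399.5 to 1043, only 1 passed 100 in each group.

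To place the differences on the genome, the sequences just before the starts of the members were read from the RefSeq promoter table (GRCm38.p6), which matched 8 of the 9 members with 10 start sites. Cldn9 has no entry there. The letters CAGGTG, searched on both strands, are the E-box that the repressors SNAI1 and ZEB1 are known to bind. They occur in 7 of the 10 windows of 300 bases (250 before and 50 after a start), which belong to 6 members, and in 20.2% of all 32851 promoter windows. The 2 Ocln windows overlap and share a match. The ETS letters CCGGAAG, searched likewise, are in 2 of the 10 windows, both of Cldn7, against 8.86% of all windows, and the Grainyhead-like letters AACCGGTT are in 0 of them, against 0.146%. The sequences show the 250 bases before the start, with the E-box letters in capitals. They are given for Cldn4, its neighbour Cldn3 and Cldn7, whose transcripts were lower in both resistant populations, and for Ocln.
Cldn4, chr5:134946935-134947184, minus strand: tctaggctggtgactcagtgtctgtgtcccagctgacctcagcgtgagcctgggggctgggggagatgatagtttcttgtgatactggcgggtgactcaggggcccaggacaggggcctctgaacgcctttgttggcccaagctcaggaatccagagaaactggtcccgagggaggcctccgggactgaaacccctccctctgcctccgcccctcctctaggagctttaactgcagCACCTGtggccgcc
Cldn3, chr5:134985964-134986213, plus strand: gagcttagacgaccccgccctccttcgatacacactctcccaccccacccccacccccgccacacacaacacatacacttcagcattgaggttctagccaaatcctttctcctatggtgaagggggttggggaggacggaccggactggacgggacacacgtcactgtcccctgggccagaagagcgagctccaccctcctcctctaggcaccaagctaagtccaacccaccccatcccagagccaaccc
Cldn7, chr11:69965171-69965420, plus strand: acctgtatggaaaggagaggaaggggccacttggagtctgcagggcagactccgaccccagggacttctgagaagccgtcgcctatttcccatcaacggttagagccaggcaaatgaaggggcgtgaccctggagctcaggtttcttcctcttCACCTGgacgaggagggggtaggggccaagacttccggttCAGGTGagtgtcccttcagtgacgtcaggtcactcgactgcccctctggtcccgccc
Ocln, chr13:100552499-100552748, minus strand: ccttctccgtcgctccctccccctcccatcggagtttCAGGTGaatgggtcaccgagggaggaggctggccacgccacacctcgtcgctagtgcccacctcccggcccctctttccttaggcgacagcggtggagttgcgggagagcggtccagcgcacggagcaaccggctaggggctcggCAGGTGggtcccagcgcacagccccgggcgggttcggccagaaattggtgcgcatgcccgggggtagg
The match in Cldn4 begins at -14 from the start, with another at 12 past it. The Cldn7 window shown belongs to the downstream one of its start sites and holds matches at -97 and -57. The window of its upstream start holds no match. The Ocln window shown also belongs to the downstream start, with matches at -213 and -68. At the upstream Ocln start the only match lies past the start, at 8. In Cldn3 the only match lies past the start, at 32, outside the printed bases. Of the members not printed, Cldn6 has matches at -93 and 41 and F11r has a match at -122. The windows of Cldn1 and Tjp1 hold no match. A match is a run of letters and not a measured site.

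Without treatment, Cldn4, Cldn7 and Cldn9 were the called members with the largest differences between the resistant populations and 4T1. Cldn4 was 4.62-fold lower in 4T1R1 and 3.31-fold lower in 4T1R2, whereas Cldn9 was 2.38-fold and 4.37-fold higher. Cldn7 was 2.79-fold lower in 4T1R1 and 1.28-fold lower in 4T1R2. Ocln, Tjp1 and F11r differed by at most 1.12-fold in either population. In such bulk samples, fewer cells with a transcript and less of it in each cell cannot be told apart. By edgeR's quasi-likelihood test, with Benjamini-Hochberg adjustment over 13507 genes, 5 of the 8 members tested passed an adjusted p of 0.05 in 4T1R1, 2 higher and 3 lower. Of all genes tested, 52.7% passed in that comparison, 25.2% higher and 27.5% lower. In 4T1R2, 7 of 8 passed, 2 higher and 5 lower, against 52.4% of all genes, 25.6% higher and 26.9% lower. So many genes passed that a member's call says little by itself, and the sizes below carry the comparison. The median log2 fold change of the tested members was -0.08 in 4T1R1 and -0.19 in 4T1R2, and that of all genes was 0.01 in both. Both comparisons share the untreated 4T1 libraries.

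**Figure D1:**
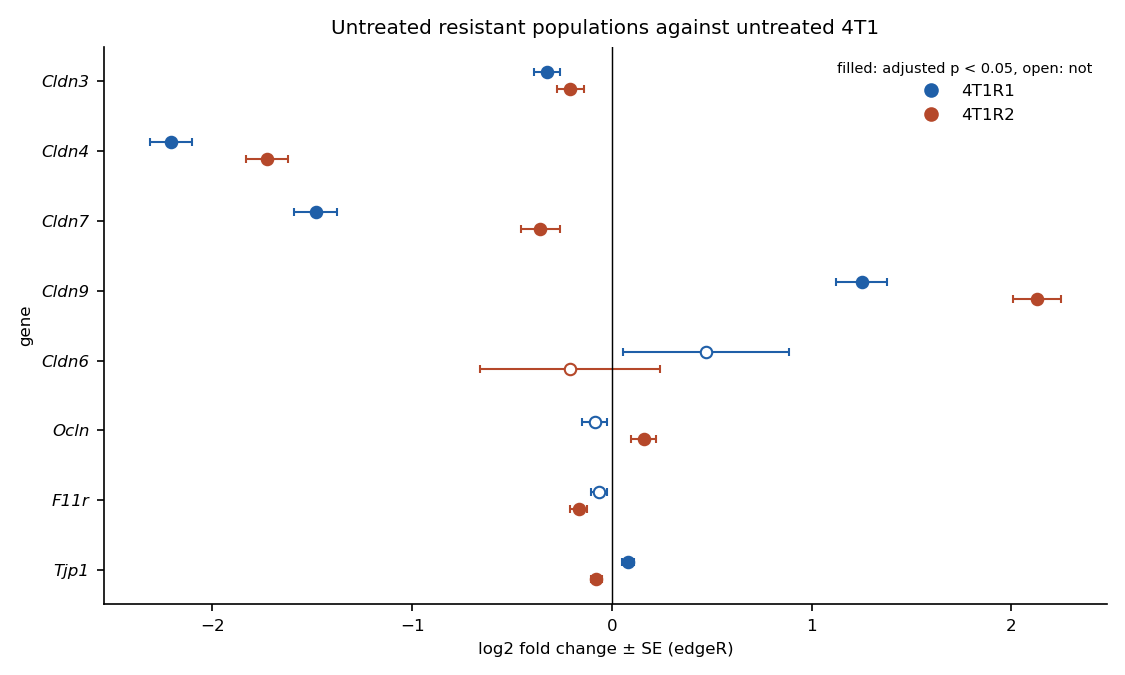
Log2 fold change of each tested member in untreated 4T1R1 (blue) and 4T1R2 (red) against untreated 4T1, with its standard error. Filled points passed an adjusted p of 0.05; Cldn4 lies farthest to the left in both populations and Cldn9 farthest to the right.

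Cldn4, a claudin of the barrier-forming kind, had the largest difference of any member in 4T1R1. Its levels were 922, 945 and 981 normalized counts in the untreated 4T1 libraries. The untreated 4T1R1 libraries had 245.5, 175 and 194, and those of 4T1R2 had 282, 263 and 313. Every untreated 4T1 library therefore lay far above every resistant library, and the 2 resistant populations did not overlap either. The log2 fold change from 4T1 was -2.21 ± 0.11 (SE) in 4T1R1 (edgeR adjusted p = 5.7e-21) and -1.73 ± 0.10 in 4T1R2 (edgeR adjusted p = 7.43e-18). Cldn4 was 0.48 ± 0.12 higher on the log2 scale in 4T1R2 than in 4T1R1 (edgeR adjusted p = 0.0011). The summed epithelial markers given above were lower in the same populations, by a smaller ratio, and their part in this difference was not tested. Of the 6 markers, 5 were called lower in 4T1R1. In 4T1R2, 4 were called lower and 1, Cdh1, higher. Of all genes tested, 27.5% were called lower in 4T1R1, and 26.9% lower and 25.6% higher in 4T1R2.

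Cldn3 lies next to Cldn4 on chromosome 5, with 39279 bases between them, and encodes another claudin that tightens the barrier. Cldn4 spans 134945119 to 134946934 on the minus strand and Cldn3 spans 134986214 to 134987472 on the plus strand (GRCm38). The levels of Cldn3 were 815, 746 and 726 normalized counts in untreated 4T1, 639, 618 and 568 in 4T1R1, and 673, 670.3 and 634 in 4T1R2. All resistant libraries were below all 4T1 libraries, but by a small margin. The log2 fold change was -0.32 ± 0.07 in 4T1R1 (edgeR adjusted p = 7.4e-05) and -0.21 ± 0.07 in 4T1R2 (edgeR adjusted p = 0.0085). The call in 4T1R2 was lost without untreated 4T1 replicate 1 (-0.16, edgeR adjusted p = 0.075). Per length, the ratio of Cldn4 to Cldn3 was 0.866 ± 0.077 (SD, n = 3) in untreated 4T1, 0.233 ± 0.035 in 4T1R1 and 0.302 ± 0.037 in 4T1R2. In untreated 4T1, then, the pair were near parity, and in the untreated resistant populations Cldn3 was in clear excess. Treated 4T1 had a ratio of 0.355 ± 0.0235 (SD, n = 2), so Cldn3 was in excess there as well. The ratio was 0.152 ± 0.0135 in treated 4T1R1 and 0.259 ± 0.045 in treated 4T1R2 (SD, n = 3). The antisense gene Wbscr25 overlaps the end of Cldn3 and had 0 to 5 counts per library.

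Cldn7, a claudin found along the whole lateral membrane and known to bind EpCAM, separated the resistant populations from each other. It had 373, 420 and 386 normalized counts in untreated 4T1, 125, 156 and 141 in 4T1R1, and 294, 312 and 315 in 4T1R2. The 4T1R1 libraries were far below both other populations, while 4T1R2 was just below 4T1 with no overlap. The log2 fold change from 4T1 was -1.48 ± 0.11 in 4T1R1 (edgeR adjusted p = 3.4e-15) and -0.36 ± 0.10 in 4T1R2 (edgeR adjusted p = 0.0024). Cldn7 was 2.18-fold higher in 4T1R2 than in 4T1R1 (log2 1.12 ± 0.11, edgeR adjusted p = 7.3e-11), and this is a contrast that the number run of the 4T1R1 libraries also separates.

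Cldn9, which is best known from the inner ear, went the other way. Its levels were 84.9, 98.3 and 91.7 normalized counts in untreated 4T1, 195, 236 and 224 in 4T1R1, and 385.5, 394 and 424.5 in 4T1R2. The 3 populations did not overlap and rose in the order 4T1, 4T1R1, 4T1R2. The log2 fold change was 1.25 ± 0.13 in 4T1R1 (edgeR adjusted p = 4.9e-11) and 2.13 ± 0.12 in 4T1R2 (edgeR adjusted p = 1.4e-18), and 4T1R2 was 0.88 ± 0.11 above 4T1R1 (edgeR adjusted p = 9.3e-09).

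Cldn6, a claudin of embryonic epithelium, is the nearest neighbour of Cldn9. On chromosome 17 it spans 23679249 to 23682446 on the plus strand, and Cldn9 spans 23682584 to 23684026 on the minus strand, so their ends face each other across 137 bases. Cldn6 stayed near the limit of detection with 5 to 34 reads per library before averaging. Its normalized counts were 13.5, 15.0 and 30.2 in untreated 4T1, 33.1, 19.8 and 28.8 in 4T1R1, and 15.3, 22.2 and 14.0 in 4T1R2. The groups overlap and none of the comparisons passed. The 95% interval of the log2 difference from 4T1 ran from -0.34 to 1.28 in 4T1R1 and from -1.09 to 0.67 in 4T1R2, and the rise of Cldn9 in 4T1R2 lies outside the second. Whether the reads were assigned by strand is not given in the sources used here.

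Cldn1, a claudin of epidermis and of many glandular epithelia, was almost without reads. It had 0 to 12 reads in a library, too few to pass the filter, and was not tested. Untreated 4T1 had 0, 0 and 2 reads, untreated 4T1R1 had 8, 6 and 8, and untreated 4T1R2 had 0, 2 and 6. The 4T1R1 libraries lay above those of 4T1 without overlap. A count of 0 allows up to 3 reads from counting error alone if reads are independent. Low counts were even in 65.6 to 70.8% of cases per library, so reads may not be independent and the limit may be higher.

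Ocln, the tetraspanning protein that lines the strands, stayed near its 4T1 level. The untreated libraries had 1032, 1171 and 1002 normalized counts in 4T1, 1021, 1001 and 993 in 4T1R1, and 1246, 1102 and 1220 in 4T1R2. Those of 4T1R1 overlapped 4T1 (log2 -0.09 ± 0.06, edgeR adjusted p = 0.24). In 4T1R2 the level was 0.16 ± 0.06 higher on the log2 scale (edgeR adjusted p = 0.028), although the libraries overlapped. That call was lost on leaving out untreated 4T1 replicate 1 or 3 or untreated 4T1R2 replicate 1 or 3, with values from 0.11 to 0.23 over all libraries left out in turn. Ocln was 0.25 ± 0.06 higher in 4T1R2 than in 4T1R1, without overlap (edgeR adjusted p = 0.0014).

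F11r, the adhesion receptor JAM-A, had 2356, 2346 and 2486 normalized counts in untreated 4T1, 2231, 2363 and 2282 in 4T1R1, and 2139, 2166 and 2102 in 4T1R2. The 4T1R1 libraries overlapped those of 4T1 (log2 -0.06 ± 0.04, edgeR adjusted p = 0.19), and those of 4T1R2 were all lower (-0.17 ± 0.04, edgeR adjusted p = 7.9e-04). Tjp1, the scaffold ZO-1, had 7293, 7516 and 7276 in untreated 4T1, 7734, 7736 and 7873 in 4T1R1, and 7021, 6951 and 6950 in 4T1R2. The libraries of the 3 populations did not overlap, yet the shifts were slight, with log2 fold changes of 0.08 ± 0.03 in 4T1R1 (edgeR adjusted p = 0.016) and -0.08 ± 0.03 in 4T1R2 (edgeR adjusted p = 0.021). Each of these 2 calls was lost on leaving out any of 3 libraries: untreated 4T1R1 replicate 3 or untreated 4T1 replicate 1 or 3 for 4T1R1 (smallest change 0.07), and untreated 4T1 replicate 2 or untreated 4T1R2 replicate 2 or 3 for 4T1R2 (smallest change -0.06). The call in 4T1R2 was also lost with scaling by total counts alone (-0.06, edgeR adjusted p = 0.13).

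Set directly against each other, untreated 4T1R2 and 4T1R1 differed in 6 of the 8 members tested, 4 higher in 4T1R2 (Cldn4, Cldn7, Cldn9 and Ocln) and 2 lower (Tjp1 and F11r). Of all genes, 38.8% passed, 19.7% higher and 19% lower. Tjp1 was 0.16 ± 0.03 lower on the log2 scale (edgeR adjusted p = 1.9e-05). The F11r difference of -0.10 ± 0.04 (edgeR adjusted p = 0.048) sat at the threshold and lost its call in 10 of the 17 fits that left out 1 library (range -0.12 to -0.08). Cldn3 gave 0.12 ± 0.07, with a 95% interval from -0.02 to 0.25.

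**Figure D2:**
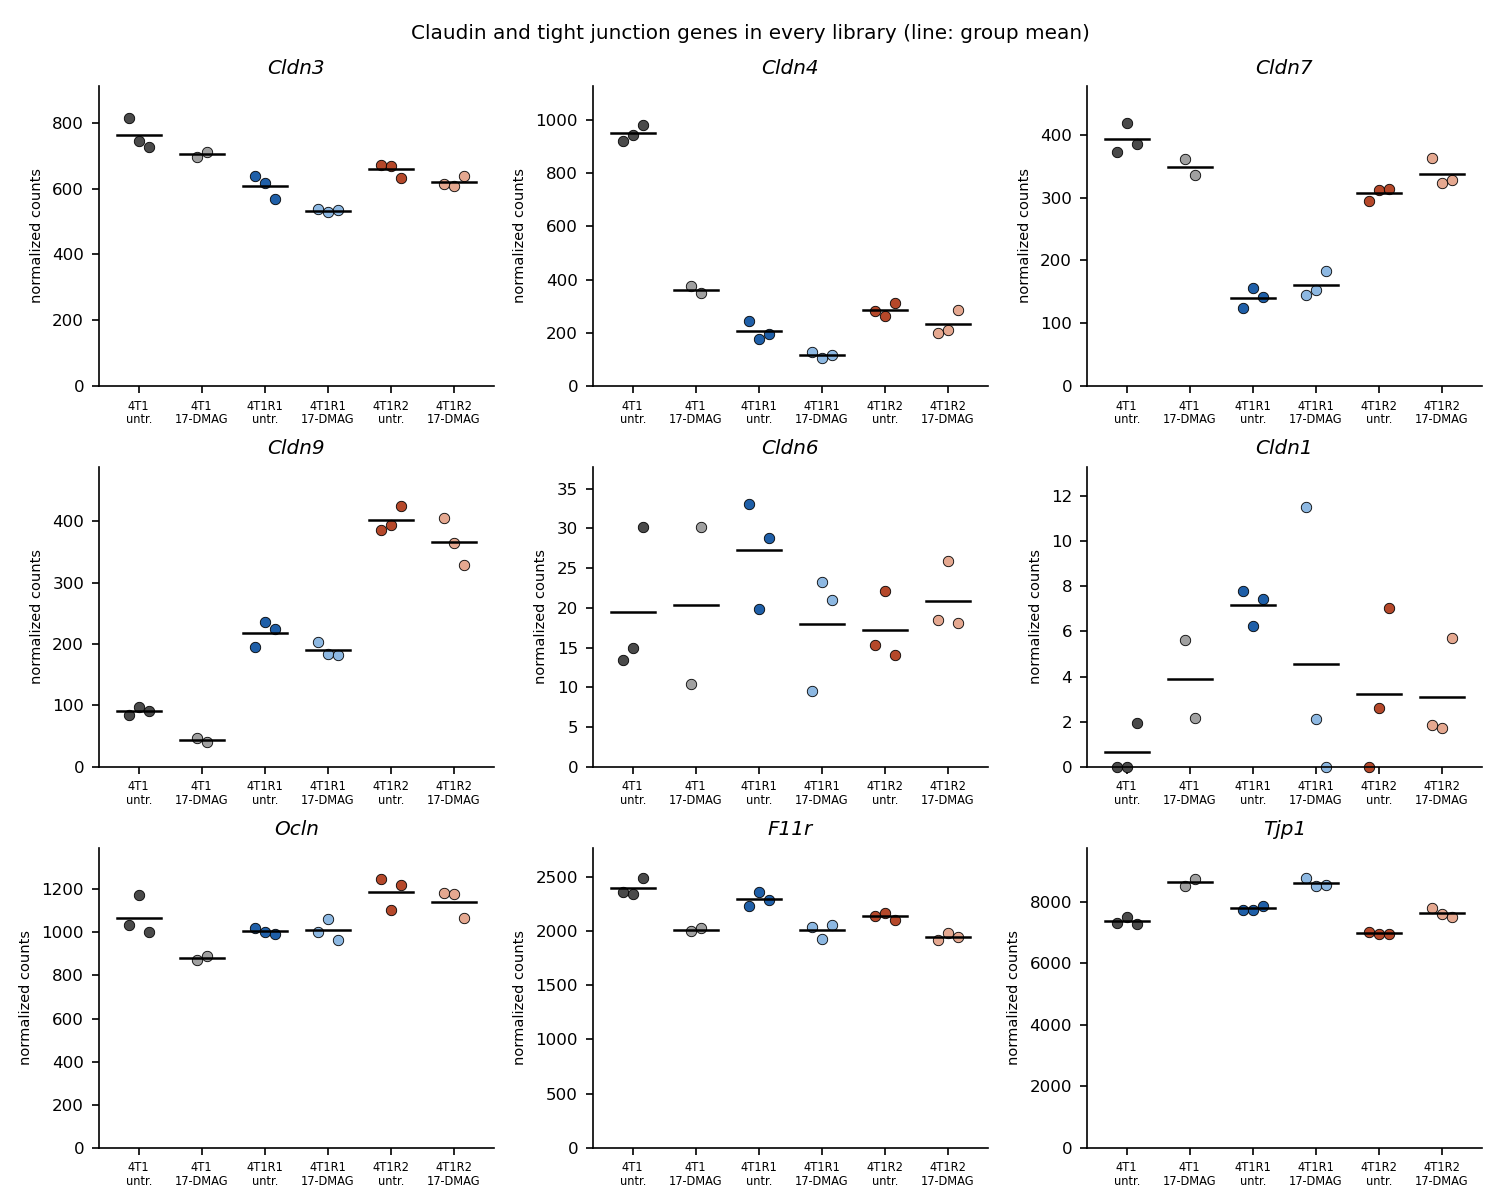
Normalized counts (reads scaled to a common library size, linear axes from 0) of the 9 members in the 17 libraries, by group; each point is a library and each line a group mean. Cldn4 is highest in untreated 4T1 and Cldn9 in 4T1R2, while Ocln, F11r and Tjp1 stay within 1.35-fold between group means.

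After 17-DMAG, Cldn4 and Cldn9 fell steeply in 4T1, and their falls in the resistant populations were smaller or did not pass the test. F11r fell and Tjp1 rose in all 3 populations, each by at most 1.19-fold. In 4T1, 5 of 8 members passed, 1 higher and 4 lower, against 36.4% of all genes, 18.4% higher and 17.9% lower. In 4T1R1, 4 of 8 passed, 1 higher and 3 lower, against 28.2% (13.9% higher, 14.3% lower). In 4T1R2, 2 of 8 passed, 1 higher and 1 lower, against 10.5% (6.18% higher, 4.35% lower). With scaling by total counts alone, the split of all genes became 8.83% higher and 32% lower in 4T1, 17.4% and 9.74% in 4T1R1, and 2.7% and 8.48% in 4T1R2. The members then passed as 1 higher and 6 lower in 4T1, 1 and 2 in 4T1R1, and 0 and 2 in 4T1R2. Under that scaling the median log2 change of all genes in 4T1 was -0.11. The members' own medians were -0.21, -0.19 and -0.07 in the 3 populations.

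Cldn4 had 374 and 348 normalized counts in the treated 4T1 libraries, against a mean of 949 ± 29.9 (SD, n = 3) untreated. In treated 4T1R1 it had 128.5, 106 and 117, and in treated 4T1R2 200.1, 211 and 285. Treated 4T1 thus still lay above every resistant library, treated or not. The log2 change was -1.39 ± 0.11 in 4T1 (2.62-fold lower, edgeR adjusted p = 1.7e-13) and -0.80 ± 0.13 in 4T1R1 (1.75-fold lower, edgeR adjusted p = 1.1e-05). In 4T1R2 it was -0.31 ± 0.12 and did not pass (edgeR adjusted p = 0.085). There treated replicate 3 lay within the range of the untreated libraries, and without it the value was -0.48 (edgeR adjusted p = 0.0059). With scaling by total counts alone it was -0.35 (edgeR adjusted p = 0.043).

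The response of Cldn4 was itself smaller in the resistant populations. The difference from the response of 4T1 was 0.59 ± 0.18 for 4T1R1 (edgeR adjusted p = 0.015) and 1.09 ± 0.16 for 4T1R2 (edgeR adjusted p = 1.8e-06). The first was lost without treated 4T1R1 replicate 1 (0.51, edgeR adjusted p = 0.072) or treated 4T1 replicate 3 (0.54, edgeR adjusted p = 0.072), while the second held with each library left out in turn.

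Cldn9 had 47.5 and 41.0 normalized counts in treated 4T1, 203, 184 and 183 in treated 4T1R1, and 406, 364 and 329 in treated 4T1R2. Only in 4T1 were the treated libraries clear of the untreated ones. There it fell by 1.03 ± 0.18 on the log2 scale (2.05-fold lower, edgeR adjusted p = 1.3e-05), against -0.20 ± 0.11 in 4T1R1 and -0.13 ± 0.10 in 4T1R2 (edgeR adjusted p = 0.21 and 0.48). The tested difference from the 4T1 response was 0.84 ± 0.22 in 4T1R1 (edgeR adjusted p = 0.0045) and 0.91 ± 0.21 in 4T1R2 (edgeR adjusted p = 0.0015). The treated 4T1 values rest on few reads, 38 in replicate 3 and 59 on average in the libraries counted as 1 sample.

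Cldn7 had 362 and 336 normalized counts in treated 4T1, 146, 153 and 183 in treated 4T1R1, and 363, 324 and 328 in treated 4T1R2. It passed in none of the 3 populations by edgeR at an adjusted p of 0.05: the log2 changes were -0.17 ± 0.11, 0.19 ± 0.12 and 0.14 ± 0.10, with 95% intervals from -0.38 to 0.04, -0.05 to 0.42 and -0.05 to 0.34. The treated libraries were all below the untreated ones in 4T1 and all above them in 4T1R2, which with so few libraries does not establish a shift. Cldn3 had 697 and 712 in treated 4T1, 537, 528 and 534.5 in treated 4T1R1, and 615, 608 and 638 in treated 4T1R2. Its only call was in 4T1R1 (-0.19 ± 0.07, edgeR adjusted p = 0.036), and it was lost on leaving out untreated 4T1R1 replicate 1 or 2 or any of the 3 treated 4T1R1 libraries (-0.24 to -0.15 over all libraries) and with scaling by total counts alone (-0.16, edgeR adjusted p = 0.097). In 4T1 that scaling made both claudins pass, Cldn7 at -0.28 (edgeR adjusted p = 0.031) and Cldn3 at -0.23 (edgeR adjusted p = 0.012). Cldn6 overlapped between treated and untreated libraries in each population, and Cldn1 had 0 to 12 reads in the treated libraries.

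Ocln had 873 and 892 normalized counts in treated 4T1, below each untreated 4T1 library (-0.27 ± 0.07, edgeR adjusted p = 0.0016). Treated 4T1R1 had 1003, 1060 and 965 and treated 4T1R2 had 1181, 1179 and 1067, both overlapping their untreated libraries (0.01 ± 0.06 and -0.06 ± 0.06). The response of 4T1R1 differed from that of 4T1 by 0.28 ± 0.09 (edgeR adjusted p = 0.029). The difference lost its call without treated 4T1R1 replicate 2, untreated 4T1 replicate 2, or either treated 4T1 sample (range 0.21 to 0.33). For 4T1R2 it was 0.21 ± 0.09 (edgeR adjusted p = 0.11).

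F11r had 2000 and 2025 normalized counts in treated 4T1, 2035, 1926 and 2058 in treated 4T1R1, and 1921, 1980 and 1947 in treated 4T1R2. In each population all treated libraries were below all untreated ones. The log2 changes were -0.25 ± 0.05 in 4T1 (edgeR adjusted p = 2.2e-05), -0.19 ± 0.04 in 4T1R1 (edgeR adjusted p = 4.2e-04) and -0.13 ± 0.04 in 4T1R2 (edgeR adjusted p = 0.034). The last lost its call without any 1 of the 6 libraries of 4T1R2 or treated 4T1 replicate 3 (-0.14 to -0.12).

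Tjp1 moved the other way in all 3. It had 8510 and 8743 in treated 4T1, 8767, 8525 and 8544 in treated 4T1R1, and 7794, 7606 and 7511 in treated 4T1R2, each above all untreated libraries of its population. The log2 changes were 0.23 ± 0.03, 0.15 ± 0.03 and 0.13 ± 0.03 (edgeR adjusted p = 1.2e-07, 9.5e-05 and 0.0014). With scaling by total counts alone the change in 4T1R2 was 0.08 and did not pass (edgeR adjusted p = 0.082).

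Over the members, the response of 4T1R1 differed from that of 4T1 in 3 of 8, all with a higher value, against 18.2% of all genes (9.16% higher, 9.08% lower). The response of 4T1R2 differed in 2 of 8, both with a higher value, against 17.8% (9.62% higher, 8.16% lower). These comparisons share the 4T1 libraries. With total counts alone, all genes split into 26.2% higher and 3.1% lower for 4T1R1 and 15.5% and 4.68% for 4T1R2, and the members into 5 higher and 0 lower, and 4 and 0. The median of all genes was then 0.15 for 4T1R1. The members added were Cldn7 and F11r for 4T1R1, and Ocln and F11r for 4T1R2.

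**Figure D3:**
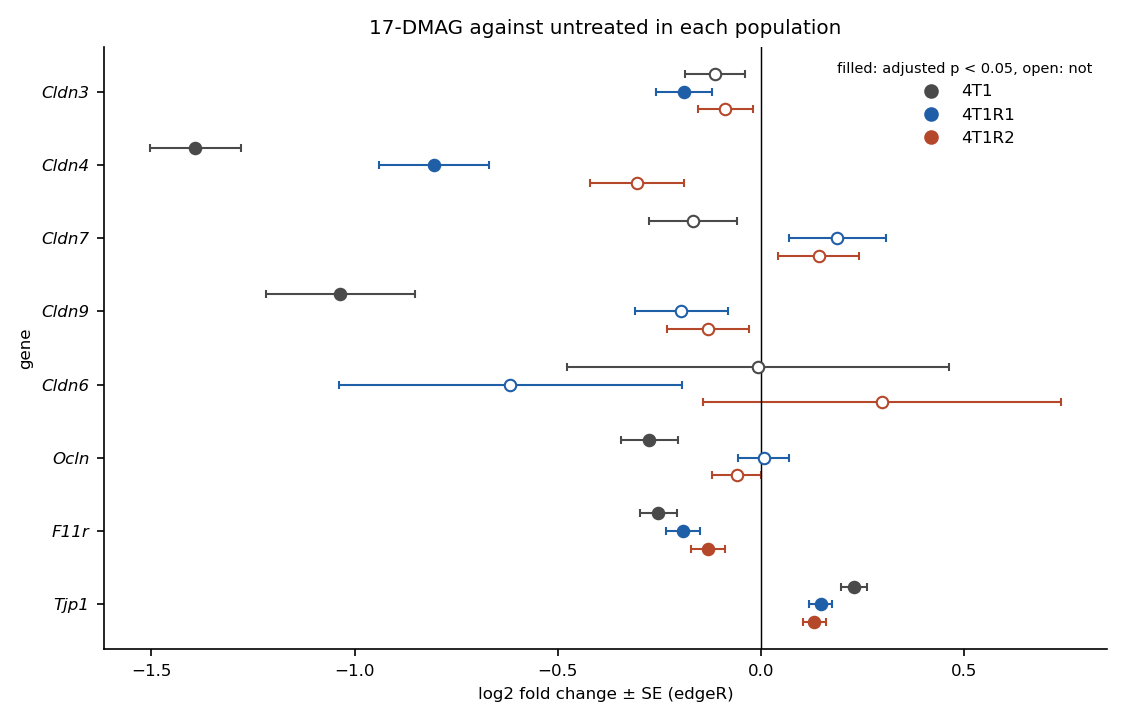
Log2 fold change of each tested member after 17-DMAG in 4T1 (grey), 4T1R1 (blue) and 4T1R2 (red), with its standard error; filled points passed an adjusted p of 0.05. Cldn4 and Cldn9 lie farther to the left in 4T1 than in either resistant population.

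Scaled to exon length and library size (counts per kb, normalized), the members differed widely in level. In untreated 4T1, Tjp1 was at 30.4 ± 0.56, F11r at 29.1 ± 0.95, Cldn3 at 19.6 ± 1.2, Cldn4 at 16.9 ± 0.5, Ocln at 8.17 ± 0.69, Cldn7 at 6.52 ± 0.40 and Cldn9 at 2.05 ± 0.15 (SD, n = 3). Cldn6 was at 0.367 ± 0.174 and Cldn1 at 0.0043 ± 0.0075. In untreated 4T1R2, Cldn9 at 8.98 ± 0.46 was above Cldn4 at 5.09 ± 0.45 and Cldn7 at 5.09 ± 0.18. The length used matters for Cldn7, which was at 9.51 in untreated 4T1 with its longest transcript in place of all its exons.

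The claudin family as a whole has 32 genes with a length, of which 20 had at most 10 reads in every library. Those 20 include 12 that had no reads in any library. Cldn12, an atypical claudin that lacks the usual tail for binding ZO proteins, was the claudin with the most transcripts per length in untreated 4T1. It took 31.6% ± 0.7 (SD, n = 3) of the summed claudin counts per kilobase, followed by Cldn3 with 27.9% ± 2.0, Cldn4 with 24.1% ± 0.5, Cldn7 with 9.31% ± 0.65 and Cldn9 with 2.93% ± 0.23. In untreated 4T1R1, Cldn12 held 61% ± 1.7, Cldn4 4.74% ± 0.63 and Cldn9 6.4% ± 0.9. In untreated 4T1R2, Cldn3 led with 31.9% ± 1.2, Cldn12 held 26.1% ± 1.0, Cldn9 17% ± 0.9 and Cldn4 9.62% ± 0.94. The summed family level was 70.0 ± 1.1 counts per kb in 4T1, 76.5 ± 3.5 in 4T1R1 and 53.0 ± 0.9 in 4T1R2. The Cldn4 share was thus smaller in both, beside a larger share of Cldn12 in 4T1R1 and of Cldn9 in 4T1R2. After 17-DMAG, Cldn12 held 53.8% ± 0.9 in 4T1 (n = 2), 71.8% ± 0.5 in 4T1R1 and 33% ± 0.3 in 4T1R2.

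**Figure D4:**
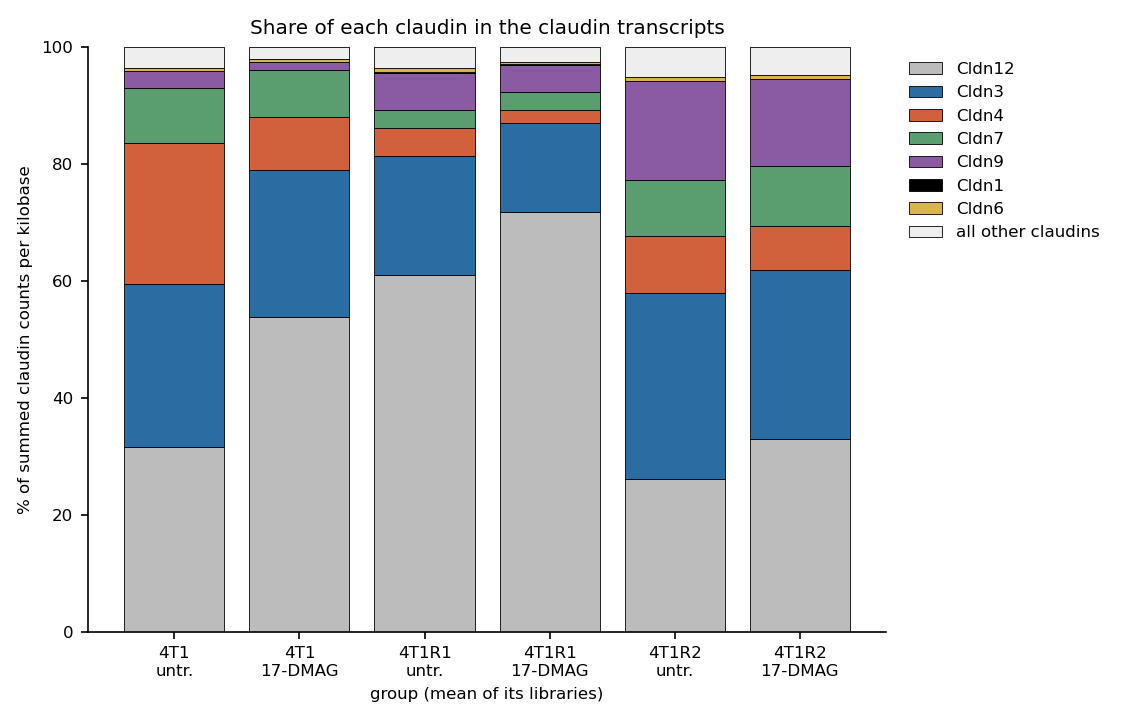
Share of each claudin in the summed claudin counts per kilobase, as the mean of the libraries of each group (bars stack to 100%). The Cldn4 share shrinks from 24.1% in untreated 4T1 to 4.74% and 9.62% in untreated 4T1R1 and 4T1R2, and the Cldn9 share reaches 17% in untreated 4T1R2.

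Of the other claudins and tight junction genes, 64 are in the count table and 42 were tested. In 4T1R1 23 passed, 13 higher and 10 lower, and in 4T1R2 20 passed, 7 higher and 13 lower; the median log2 fold changes were 0.07 and -0.02. By kind, 2 of 7 other claudins, 3 of 8 membrane proteins and 18 of 27 plaque proteins passed in 4T1R1, and 1 of 7, 2 of 8 and 17 of 27 in 4T1R2. After 17-DMAG 18 passed in 4T1 (12 higher, 6 lower), 16 in 4T1R1 (11 higher, 5 lower) and 10 in 4T1R2 (9 higher, 1 lower). In each of the 2 response differences 8 passed, 1 higher and 7 lower. With scaling by total counts alone, these became 9 higher and 13 lower in 4T1, 12 and 2 in 4T1R1, and 6 and 4 in 4T1R2, and the response differences became 9 higher and 4 lower for 4T1R1 and 3 and 5 for 4T1R2. The shares of all genes stand beside the members' counts above.

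Tjp3, the gene of the ZO-1 relative ZO-3, had the largest change among those whose higher group averaged 100 normalized counts or more. Its group means were 39.1 ± 16.2 normalized counts (SD, n = 3) in untreated 4T1, 309 ± 13.8 in 4T1R1 and 343 ± 48.5 in 4T1R2, without overlap between 4T1 and either. It was 7.79-fold higher in 4T1R1 (log2 2.96 ± 0.17, edgeR adjusted p = 2.6e-18) and 8.67-fold higher in 4T1R2 (3.12 ± 0.17, edgeR adjusted p = 4.7e-19). Cldn12 had means of 2894 ± 103 in 4T1, 6115 ± 404 in 4T1R1 and 1809 ± 81.8 in 4T1R2, so it was higher in 4T1R1 (log2 1.08 ± 0.04) and lower in 4T1R2 (-0.68 ± 0.04). It rose after 17-DMAG in 4T1 by 0.80 ± 0.04, in 4T1R1 by 0.47 ± 0.04 and in 4T1R2 by 0.40 ± 0.04, each with an edgeR adjusted p of at most 7.3e-09. The multi-PDZ scaffold Magi1 was 0.75 ± 0.05 and 0.96 ± 0.05 higher in 4T1R1 and 4T1R2, and the polarity protein gene Pard6b was lower in both (-0.65 ± 0.05 and -0.69 ± 0.05). Smaller changes in 4T1R1 were Mpp7 (0.48), Cgnl1 (-0.42) and the tricellulin gene Marveld2 (-0.41). In 4T1R2 they were Sympk (0.40), Tjap1 (0.29), Marveld1 (-0.36) and Prkcz (-0.31), the last of which lost its call without untreated 4T1 replicate 3 (-0.26, edgeR adjusted p = 0.062). Each list holds the largest changes of its population, and a gene named there may also differ in the other population. In untreated 4T1, 4T1R1 and 4T1R2, mean normalized counts were 1834, 2495 and 2246 for Tjap1. They were 3541, 4290 and 4658 for Sympk and 7826, 5844 and 6907 for Cgnl1. Prkcz, at 290, 289 and 235, was near its 4T1 level in 4T1R1.

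**Figure D5:**
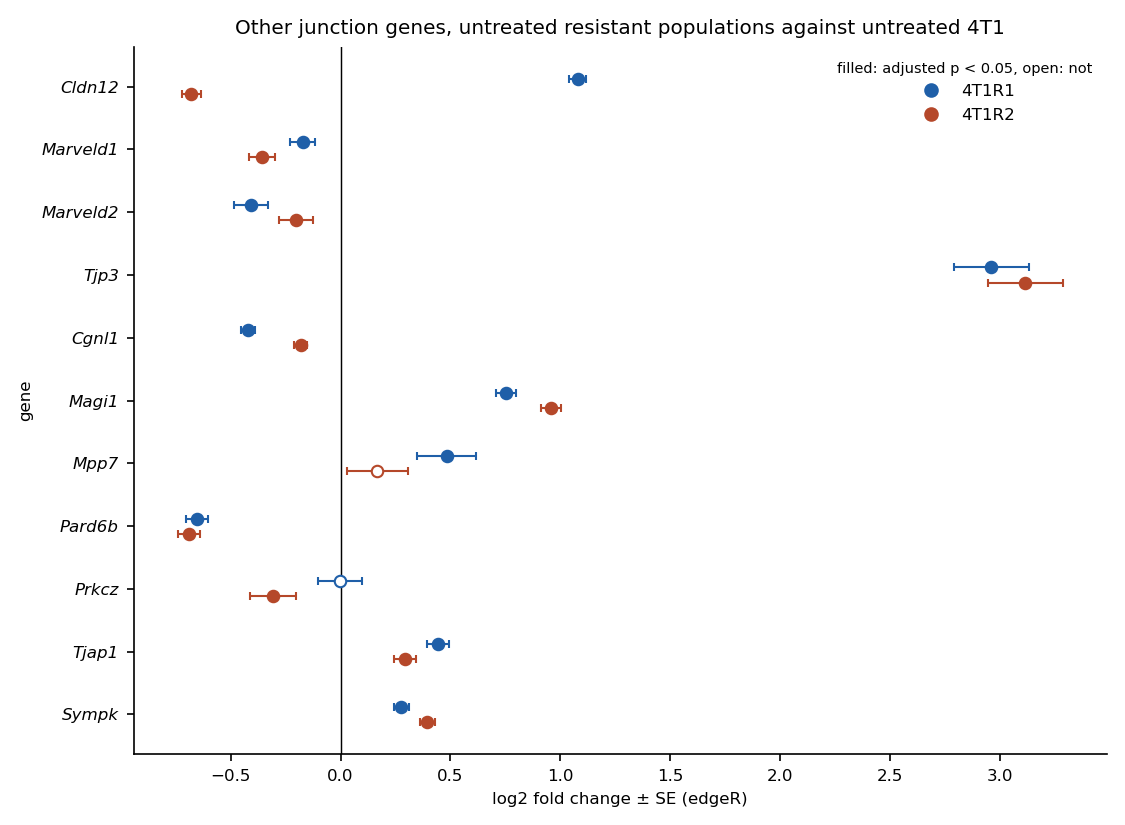
Log2 fold change with its standard error of 11 other junction genes in untreated 4T1R1 (blue) and 4T1R2 (red) against untreated 4T1; filled points passed an adjusted p of 0.05. Tjp3 lies near 3 in both populations, and Cldn12 is to the right of 0 in 4T1R1 and to the left in 4T1R2.

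Among adherens junction and desmosome genes, 10 of 17 tested passed in 4T1R1 (3 higher, 7 lower) and 13 in 4T1R2 (8 higher, 5 lower). Of all genes tested, 52.7% passed in 4T1R1 (25.2% higher, 27.5% lower) and 52.4% in 4T1R2 (25.6% higher, 26.9% lower). Cdh1, the E-cadherin gene, did not pass in 4T1R1 (log2 0.01 ± 0.03) and was 0.27 ± 0.03 higher in 4T1R2 (edgeR adjusted p = 2.4e-11). Epcam was 2.01-fold lower in 4T1R1 (-1.01 ± 0.05, edgeR adjusted p = 5.1e-20) and did not pass in 4T1R2 (-0.10 ± 0.05, edgeR adjusted p = 0.072). After 17-DMAG in 4T1, 11 of the 17 passed, 1 higher and 10 lower, against 36.4% of all genes (18.4% higher, 17.9% lower). Of 9 regulators of tight junctions (surface proteases, their inhibitors and kinase pathways), 7 passed in 4T1R1 (4 higher, 3 lower) and 6 in 4T1R2 (3 and 3).

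Of the epithelial transcription factors, 9 of 10 tested passed in each resistant population, 5 higher and 4 lower in 4T1R1 and 6 and 3 in 4T1R2. The share of all genes that passed was 52.7% in 4T1R1 and 52.4% in 4T1R2, for these factors and the repressors below. Grhl2, a Grainyhead-like factor known from other epithelia to act on Cldn4 and Cdh1, was lower on the log2 scale in both (-0.68 ± 0.05 in 4T1R1 and -0.53 ± 0.05 in 4T1R2). Its relative Grhl3, named after its values were seen, was higher in both (1.00 ± 0.20 and 1.80 ± 0.19, edgeR adjusted p = 3.9e-05 and 9.9e-11). The splicing factor Esrp1 was -1.94 ± 0.15 and -2.26 ± 0.16. The ETS factor Ehf had 0 reads in every 4T1 library and means of 1421 ± 30.7 and 1807 ± 180 normalized counts in untreated 4T1R1 and 4T1R2, and its relative Elf3 was 0.91 ± 0.07 and 0.80 ± 0.07 higher. Ovol1 was 0.58 ± 0.14 higher in 4T1R2, and its value of -0.35 ± 0.15 in 4T1R1 sat at the threshold (edgeR adjusted p = 0.048; -0.26 and edgeR adjusted p = 0.22 without untreated 4T1 replicate 3). Of the factors that repress junction genes, 5 of 6 were tested, and 4 passed in 4T1R1 (3 higher, 1 lower) and 2 in 4T1R2 (1 and 1). The one that was lower in both was Twist1, at -0.70 ± 0.12 and -2.62 ± 0.15 (edgeR adjusted p = 5.4e-06 and 2.6e-18), with means of 352 ± 14.3 normalized counts in untreated 4T1, 217 ± 6.95 in 4T1R1 and 56.3 ± 15 in 4T1R2. Zeb2 (0.32 ± 0.05) and Twist2 (1.56 ± 0.56, at 4 to 29 reads a library in these groups) passed as higher in 4T1R1, and the call of Twist2 was lost without untreated 4T1R1 replicate 2 or untreated 4T1 replicate 1 or 2 (lowest 1.28). These 3 were also named after their values were seen. Snai1 was 0.43 ± 0.10 and 0.55 ± 0.10 higher (edgeR adjusted p = 5.9e-04 and 2.4e-05), Zeb1 had means of 7.04 to 17.2 normalized counts in the untreated groups and passed in neither population (-1.31 ± 0.57 in 4T1R2, edgeR adjusted p = 0.0503), and Snai2 had 0 reads throughout. Whether any of these factors acts on the members in these cells was not tested.

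The genes whose levels most resembled those of a member were found by Pearson's correlation of log2 (normalized count + 1) over the 17 libraries, among 10631 genes with a mean of at least 100 in some group. This is a description, since the libraries share their groups. For Cldn4 they were Adamts1 (r = 0.969) and Rhoa (0.963). Adamts1, a secreted metalloprotease gene, had means of 3053 ± 112 normalized counts in untreated 4T1, 1435 ± 64.6 in 4T1R1 and 1711 ± 63 in 4T1R2 (SD, n = 3). For Cldn7 they were Ahcyl1 (0.973), Suv39h1 (0.972) and Epcam (0.97). For Cldn9 they were Lamb1 (0.986), Sfmbt2 (0.985) and Tob1 (0.985).

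The tested genes next to the claudins are given for the untreated populations. Abhd11, on the far side of Cldn3 from Cldn4, was -0.19 in 4T1R1 and -0.21 in 4T1R2 on the log2 scale. Elp5, whose end lies 336 bases from that of Cldn7, was 0.07 and 0.17, and Slc2a4, on its other side, was 1.28 ± 0.66 and 0.69 ± 0.73, neither of which passed (edgeR adjusted p = 0.10 and 0.45). Tnfrsf12a, the next gene beyond Cldn6, was -0.43 and -0.50, and Pkmyt1, beyond Cldn9, was 0.22 and -0.19. Marveld2, the neighbour of Ocln and a member of its family, was -0.41 in 4T1R1 and -0.20 in 4T1R2 (edgeR adjusted p = 1.6e-05 and 0.023).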

How the data were processed

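RNA-seq libraries (total RNA, ribosomal RNA depleted, stranded) were made from 18 samples in 6 groups. Per the submitters' processing notes, the authors used bcl2fastq 2.20, STAR and featureCounts (Subread 1.6.2) with mm10, and deposited read counts per gene that were not normalized. Strand setting and treatment of multi-mapping reads are not given in the sources used here. Rn45s took 9.54 to 15.6% of the counts. Replicates 1 and 2 of treated 4T1 differed far less than any other pair within a group and were averaged. Their chi-square per gene was 1.10, against 2.04 to 2.22 in the 17 other pairs. Counting error of independent reads would give about 1. Low counts were even in 65.6 to 70.8% of cases per library, so reads may not be independent. The study calls the replicates biological, and whether they were separate cultures is not given in the sources used here, so p-values measure the spread between these libraries.

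Counts were filtered with filterByExpr, scaled by TMM and tested with edgeR 4.0.16 (quasi-likelihood, R 4.3.3) in 1 fit of 17 libraries, with Benjamini-Hochberg adjustment at 0.05, and tested on simulated data. Normalized counts are reads at a common library size. Alternatives were RLE and total-count scaling, other filters, Rn45s left out, DESeq2 1.42.0, only the groups compared, a replicate block, all 18 libraries apart, transcript length and leaving out each library. Figures used matplotlib 3.10.9.

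All members were named. Of the other junction genes, up to 4 per direction and population were named, being the largest changes with at least 100 normalized counts, an adjusted p under 0.05 and no overlap, together with chosen adherens genes and factors, the 3 genes most like a member, and tested neighbours within 100 kb. The members and lists were chosen with earlier results of these data known. Counting intervals and floors cover counting error only and take reads as independent. Replicate numbers did not pair the libraries. A few genes that the naming rule picks are not reported here.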

Additional observations from a re-analysis of the deposited data

Results flagged for a closer look

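The following response differences between populations passed the test of the difference itself, by edgeR over all genes. For Cldn4 the 17-DMAG response of 4T1R1 minus that of 4T1 was 0.587 on the log2 scale (SE 0.176, edgeR adjusted p = 0.0149), and that of 4T1R2 minus 4T1 was 1.09 (SE 0.161, edgeR adjusted p = 1.76e-06). For Cldn9 they were 0.839 (SE 0.217, edgeR adjusted p = 0.0045) and 0.905 (SE 0.21, edgeR adjusted p = 0.0015). For Ocln the 4T1R1 difference was 0.281 (SE 0.0935, edgeR adjusted p = 0.029). All rest on the same 4T1 libraries, of which the treated group holds 2 samples, and no group had enough libraries to look for single outlying values.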

How the results depend on the processing

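The untreated differences of Cldn4, Cldn7 and Cldn9 kept their direction and their call under each alternative and with each library left out, as did the falls of Cldn4 and Cldn9 in treated 4T1. With total counts alone, 5 members and 13 other junction genes passed in the response difference of 4T1R1 (the latter 9 higher and 4 lower, against 1 and 7), and 4 members in that of 4T1R2. Of all genes, 26.2% then passed as higher and 3.1% as lower for 4T1R1, and 15.5% and 4.68% for 4T1R2. Under this scaling the 4T1R1 response difference changed sign for Cldn3 (0.073) and Tjp1 (0.068), neither passing. Without a filter on low counts, 1 member passed after 17-DMAG in 4T1R2. With DESeq2, Cldn6 in treated 4T1 turned to 0.017, and no adjusted p was given for it in 3 comparisons. The F11r difference between the resistant populations lost its call under RLE (-0.10), total counts (-0.11), no filter (-0.11), DESeq2 (-0.10) and only the groups compared (-0.10). Leaving out single libraries, member counts ran from 1 to 2 after 17-DMAG in 4T1R2 and from 1 to 3 in the 4T1R1 response difference, and the other junction genes in the latter from 5 to 9, the lowest of both response counts without treated 4T1 replicate 3. In the untreated comparisons, member counts ran from 4 to 6 in 4T1R1, from 5 to 7 in 4T1R2 and from 5 to 6 between the resistant populations. Uncalled values whose sign changed on leaving out single libraries were Ocln after 17-DMAG in 4T1R1 (from -0.030 to 0.037), Cldn3 in the 4T1R2 response difference (-0.025 to 0.060), Cldn6 in untreated 4T1R2 (-0.42 to 0.26), in treated 4T1 (-0.91 to 0.62) and in the response differences of 4T1R1 (-1.24 to 0.29) and 4T1R2 (-0.32 to 1.21), and Tjp3 in treated 4T1 (-0.29 to 0.32) and in the 4T1R2 response difference (-0.51 to 0.098). The cause was not tested. Libraries of the same number did not deviate together (correlations from -0.0507 to 0.0476, and 3 of 18 libraries correlated best with their own number). A replicate block over 18 libraries gave member counts of 5, 7 and 6 in the untreated comparisons, 5, 4 and 2 after 17-DMAG, and 3 and 2 for the response differences, and moved no count by over 1.5 times. Depth limits Cldn1 and Cldn6, at no more than 34 reads a library, and Cldn9 in treated 4T1.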
